A study of Homo sapiens with 12 samples.

Results

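LNCaPabl-Enza and LNCaPabl-Abi, 2 sublines named after the established human prostate cancer cell line LNCaP, were compared without dexamethasone. The members were the 6 arrays titled as controls, 3 of LNCaPabl-Enza (Enza_Ctrl) and 3 of LNCaPabl-Abi (Abi_Ctrl), out of 12 arrays in the series. Both groups received the solvent DMSO for 24 h, and the other 6 arrays (Enza_Dex and Abi_Dex) hold the same lines after 24 h with 100 nM dexamethasone, a synthetic glucocorticoid. Total RNA was measured on single-colour Affymetrix arrays, and a level is the deposited log2 value of a gene on an array. The labels describe both lines as epithelial and give culture of LNCaP in medium with fetal calf serum. They do not spell out Abi and Enza, and whether either line is 1 clone, carries a genetic change or was kept with a drug is not given in the sources used here. Nor do they say that replicates were separate cultures, so a p-value here measures the spread between arrays, which may be partly technical.

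Abi and Enza are the usual short forms of abiraterone, which blocks androgen synthesis, and enzalutamide, which blocks androgen action. Prostate cancer cells of the LNCaP lineage depend on androgen signalling, which induces secreted proteases such as the kallikreins. The same signalling lowers other genes, among them the UGT2B enzymes that attach glucuronic acid to androgens and so inactivate them.

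Enza_Ctrl replicate 2 was a poor array. Its median Pearson r with the other arrays over all tested genes was 0.856, against 0.986 to 0.990 for each of the other 11, and its 95th percentile of negative-control probes was 9.61 against 6.91 to 7.36. Counts of calls are therefore given with all 12 arrays and with 11, without this array, and other values are from 11 unless 12 are named. Residual spread within groups had a median SD over genes of 0.43 with it and 0.26 without it. Of 12 measured luminal prostate markers, 8 lay above the negative controls (over 7.36, the highest 95th percentile among the 11 arrays) on all 5 remaining DMSO arrays, such as FOXA1, HOXB13, KRT8 and FOLH1. KLK3, KLK2, TRPM8 and SLC45A3 were at or below that level on all 5. The mean of the 12 ran from 10.98 to 11.29 over the Abi_Ctrl arrays and from 11.06 to 11.28 over the Enza_Ctrl arrays. All 3 measured basal, 5 neuroendocrine, 7 immune and 6 endothelial markers stayed at or below the level on all 5 arrays, and so did 6 of 7 fibroblast markers, with COL1A2 at 7.53 to 8.63. In bulk RNA, fewer cells of a kind and less RNA per cell cannot be told apart.

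The lines differed in many genes. With 11 arrays limma called 228 of 17687 genes at a Benjamini-Hochberg adjusted p under 0.05 (1.29%), 59 higher (0.334%) and 169 lower (0.956%) in LNCaPabl-Enza, while 1956 (11.1%) had p under 0.05 before adjustment. With all 12 arrays it called 47 (0.266%), 10 higher (0.0565%) and 37 lower (0.209%), from 1999 (11.3%) before adjustment, all 47 of them among the 228 with the same sign. Normalizing the 12 arrays to a common distribution again moved that split to 12 higher and 24 lower. Of the 228, 214 had an absolute log2 difference over 1 and 70 over 2, of which 49 were lower and 21 higher. All 228 had no overlap between the 2 Enza_Ctrl arrays and the 3 Abi_Ctrl arrays, where 24.0% of all genes had none, and 191 also had none with the poor array included, where 14.2% of all genes had none. The 11-array count was 58 without Enza_Ctrl replicate 1, which leaves a single Enza_Ctrl array whose spread is assumed to be that of the other groups, and 139 without Abi_Ctrl replicate 2. It was 182 to 242 without any other array. The 12-array count was 99 without Enza_Ctrl replicate 3, 38 without Abi_Dex replicate 3, and 11 to 21 without any other of the good arrays. Of the 228 called genes, 84 lay above the negative controls on all 11 arrays and 35 on none. Among all 17687 genes, 7564 lay above them on all 11 and 8687 on none. A gene that fell to that level has a fold change of uncertain size, and folds are on the deposited scale.

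Among the genes furthest below LNCaPabl-Abi was S100A10, a calcium-binding-family protein that pairs with annexin A2 at the plasma membrane. It was at 13.74, 13.69 and 12.36 in Abi_Ctrl and at 5.84, 7.04 and 8.44 in Enza_Ctrl replicates 1, 2 and 3. Every Enza_Ctrl array lay far below every Abi_Ctrl array, by -6.16 ± 0.70 (SE) with 12 arrays (limma adjusted p = 0.00373) and -6.12 ± 0.68 with 11 (adjusted p = 0.000193). EFNA5, a membrane-bound ligand of Eph receptors, was at 11.29, 11.42 and 11.93 in Abi_Ctrl and at 6.0, 5.57 and 7.31 in Enza_Ctrl. Its difference was -4.89 ± 0.53 with 11 arrays (adjusted p = 0.000144). CHN1, a Rac GTPase-activating protein, was at 12.63, 13.22 and 13.93 in Abi_Ctrl and at 7.05, 6.75 and 9.87 in Enza_Ctrl, so that replicate 3 was the highest of an uneven Enza_Ctrl group. SDC2, the cell-surface heparan sulfate proteoglycan syndecan-2, had the same uneven pattern, with 13.37, 13.99 and 13 in Abi_Ctrl and 7.48, 6.56 and 10.78 in Enza_Ctrl. Both were called, CHN1 at -4.80 ± 0.69 (adjusted p = 0.00201) and SDC2 at -4.33 ± 0.70 (adjusted p = 0.00504), and SDC2 lost its call without Enza_Ctrl replicate 1.

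**Figure D1:**
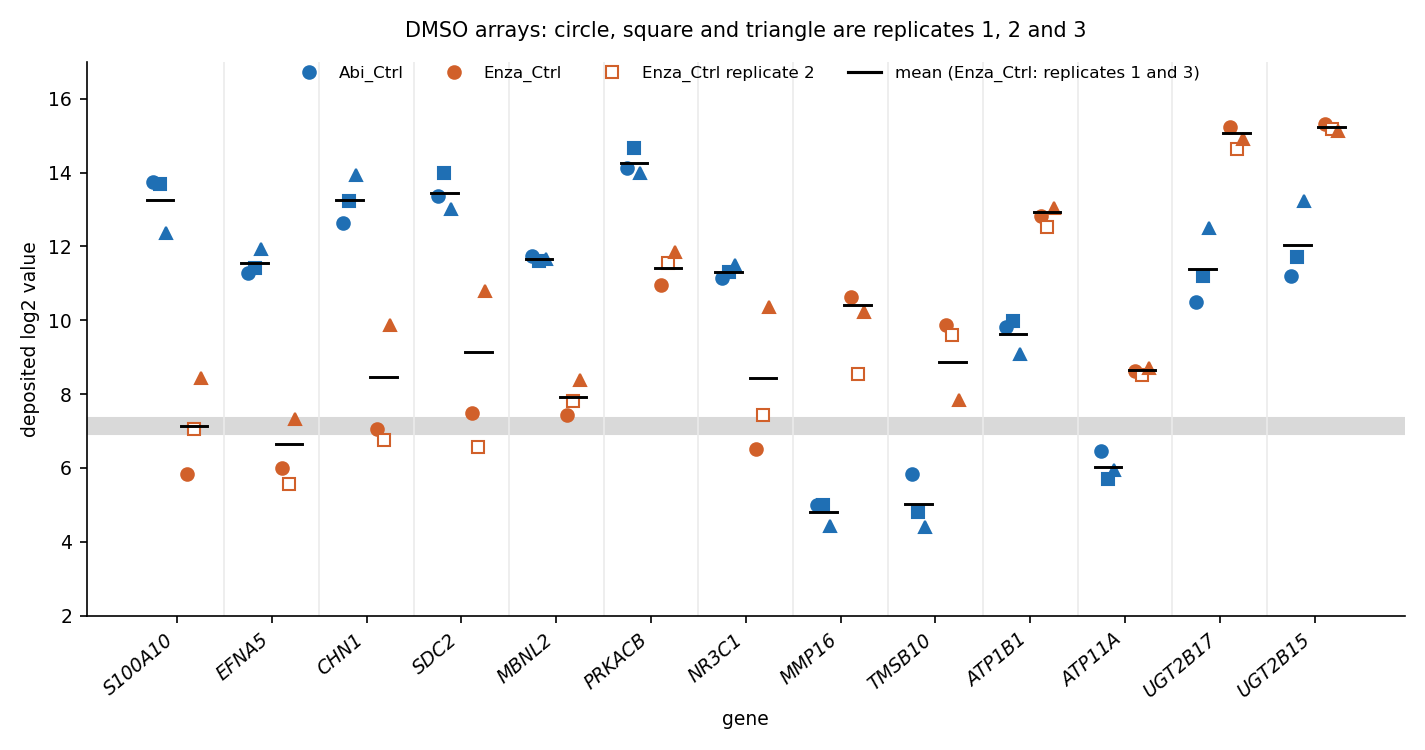
Deposited log2 values (vertical axis) of 13 genes on the 6 DMSO arrays, with Abi_Ctrl in blue, Enza_Ctrl in orange, the poor array as an open square and black bars for the mean of the good arrays; the grey band spans the 95th percentiles of the negative controls on the other 11 arrays, 6.91 to 7.36. The groups are apart for every gene shown. Enza_Ctrl replicate 3 (triangle) sits nearest to Abi_Ctrl for all except MMP16, ATP1B1, ATP11A and UGT2B17, where the poor array does.

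MBNL2 and MBNL3, RNA-binding proteins that set alternative splicing, were both lower, and were the 2 called of 22 measured splicing and RNA-binding genes with 12 arrays and with 11. Of all genes 0.266% were called with 12 arrays and 1.29% with 11. MBNL2 was nearly equal across Abi_Ctrl, at 11.73, 11.60 and 11.66, and at 7.44, 7.80 and 8.38 in Enza_Ctrl, a difference of -3.75 ± 0.27 (adjusted p = 6.15e-06 with 11 arrays, 0.000427 with 12). MBNL3, a gene on chromosome X, was at -1.94 ± 0.25 (adjusted p = 0.000938). PRKACB, a catalytic subunit of protein kinase A, was at 14.13, 14.67 and 14 in Abi_Ctrl and at 10.96, 11.56 and 11.84 in Enza_Ctrl, far above the negative controls in both lines, with a difference of -2.87 ± 0.29 (adjusted p = 8.51e-05). Other genes at the low end were SCRN1 at -3.46 ± 0.27, SPRY3, a Sprouty-family gene, at -3.40 ± 0.37, the histone gene H2AJ at -3.32 ± 0.28, the homeobox gene MKX at -3.26 ± 0.28, GPRIN3 at -3.23 ± 0.35 and the glutathione peroxidase GPX8 at -3.18 ± 0.30 (adjusted p from 1.36e-05 to 0.000144). The protease gene TLL1, the chromatin-associated ARID5B, ZDHHC15, which encodes an enzyme that attaches palmitate to proteins, and NEB, which encodes nebulin, were also lower, from -2.85 to -2.43 (adjusted p from 0.000301 to 0.00454). DAB1, a reelin-pathway adaptor, was at -3.62 ± 0.80 and PRDM1, a transcriptional repressor, at -2.89 ± 0.57 (adjusted p = 0.0375 and 0.0192). Neither was called with 12 arrays.

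The genes highest in LNCaPabl-Enza included MMP16, a membrane-bound matrix metalloproteinase. MMP16 was at 5.00, 4.99 and 4.43 in Abi_Ctrl, below the negative-control level, and at 10.62, 8.54 and 10.21 in Enza_Ctrl. The difference was 5.61 ± 0.35 with 11 arrays (adjusted p = 1.46e-06) and 4.99 ± 0.52 with 12 (adjusted p = 0.00213). MMP16 was the 1 member called of 40 measured mesenchymal and matrix genes with either set of arrays, whose median difference was 0.06. Of all genes 0.266% were called with 12 arrays and 1.29% with 11. TMSB10, thymosin beta-10, which binds actin monomers, was at 5.84, 4.80 and 4.39 in Abi_Ctrl and at 9.88, 9.59 and 7.83 in Enza_Ctrl, a difference of 3.84 ± 0.57 (adjusted p = 0.00253). Among 39 measured thymosin, Rac and actin regulators, TMSB10 was called higher and CHN1 and DOCK10, a GTPase activator at -1.67 ± 0.35 (adjusted p = 0.0269), lower, and DOCK10 was not called with 12 arrays. ATP1B1, the beta subunit of the sodium pump, was at 9.82, 9.97 and 9.07 in Abi_Ctrl and at 12.81, 12.53 and 13.03 in Enza_Ctrl. The poor array lay with the others there, and the difference was 3.30 ± 0.27 with 11 arrays (adjusted p = 1.36e-05) and 3.17 ± 0.29 with 12 (adjusted p = 0.00111).

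The other genes at the high end were ATP11A, a phospholipid flippase, at 2.63 ± 0.22, IFT57, a ciliary transport gene, at 3.05 ± 0.25, ELOVL7, a fatty acid elongase, at 3.16 ± 0.60, GALNT7, which starts O-linked glycans, at 2.51 ± 0.38, EMP2 at 2.48 ± 0.25, DENND1B at 2.40 ± 0.39, ST8SIA4, a polysialyltransferase, at 2.35 ± 0.31, ADGRG6, an adhesion G protein-coupled receptor, at 2.20 ± 0.24 and PLD1, phospholipase D1, at 2.17 ± 0.22 (adjusted p from 1.36e-05 to 0.0163 with 11 arrays). With 12 arrays ATP11A, ADGRG6 and PLD1 were called, and the other genes of this group were not. IFT57 and ST8SIA4 did not pass the negative-control level on any of the 11 arrays. EGFR, the epidermal growth factor receptor, was at 5.82, 4.73 and 5.54 in Abi_Ctrl and at 7.30, 6.79 and 7.06 in Enza_Ctrl. EGFR passed the array's own 95th percentile of negative controls on only 3 of the 11 arrays. It was the 1 called of 40 measured receptor tyrosine kinases and ligands and of 14 basal epithelial markers, at 1.82 ± 0.29 (adjusted p = 0.00454; 0.0541 with 12 arrays). The share called among all genes was 1.29% with 11 arrays.

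UGT2B enzymes were higher in LNCaPabl-Enza as a cluster. Of 10 measured genes of glucuronidation, 6 were called higher and 0 lower with 11 arrays, where 0.334% of all genes were called higher, with a median difference of 1.63 where that of all genes was -0.00. With 12 arrays 3 were called, where 0.0565% of all genes were. UGT2B17, the main enzyme that clears dihydrotestosterone, was at 10.48, 11.19 and 12.50 in Abi_Ctrl and at 15.22, 14.64 and 14.92 in Enza_Ctrl. UGT2B15, which acts on the same androgens, was at 11.20, 11.71 and 13.23 and at 15.32, 15.17 and 15.13. The Enza_Ctrl arrays were close together for both, and the spread lay in Abi_Ctrl, where replicate 3 was highest. Their differences were 3.68 ± 0.54 (adjusted p = 0.00229) and 3.18 ± 0.55 (adjusted p = 0.00818). UGT2B10 was at 2.49 ± 0.38, UGT2B28 at 1.75 ± 0.28, UGT2B7 at 1.72 ± 0.29 and UGT2B11 at 1.34 ± 0.31 (adjusted p from 0.00314 to 0.0455). Those 4 lay near or under the negative-control level in both lines, so the size of their differences is uncertain. UGT2B10 and UGT2B7 passed the array's own 95th percentile of negative controls on 1 of the 11 arrays, UGT2B11 on 2 and UGT2B28 on 0. UGT2B4, another measured member of the subfamily, was at 1.56 and missed the threshold (adjusted p = 0.131; named after its value was seen). The 6 genes are close paralogs next to each other on chromosome 4, and how the probes divide them is not given in the sources used here, so the share of each is uncertain. All 6 calls were lost without Enza_Ctrl replicate 1, where the list's median was 1.13. The 3 calls with 12 arrays were also lost without Enza_Ctrl replicate 1, Abi_Ctrl replicate 1 or 2, Abi_Dex replicate 1 or 2, or any Enza_Dex array.

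Promoters are shown for the UGT2B genes because the members rose together and resemble each other. In the RefSeq table (GRCh38.p14, the 250 bases before the gene start on the gene's strand), 4 of the 6 called genes matched by symbol. UGT2B10 and UGT2B11 are shown for their likeness, 90.2% of aligned bases, where the other pairs had 61.3% to 71.4%. UGT2B15 is shown because it holds AGAACA, a half-site of steroid receptor binding, in capitals, 172 bases before the gene start. Searched on both strands, AGAACA was in 1 of these 4 promoters and in 12.4% of all 27305.
UGT2B10 (chr4:68815744-68815993, plus strand): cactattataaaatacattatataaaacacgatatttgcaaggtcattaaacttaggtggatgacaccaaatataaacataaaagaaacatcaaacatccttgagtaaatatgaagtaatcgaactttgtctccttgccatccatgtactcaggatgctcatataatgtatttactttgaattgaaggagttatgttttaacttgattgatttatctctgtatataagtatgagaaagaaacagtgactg
UGT2B11 (chr4:69214749-69214998, minus strand): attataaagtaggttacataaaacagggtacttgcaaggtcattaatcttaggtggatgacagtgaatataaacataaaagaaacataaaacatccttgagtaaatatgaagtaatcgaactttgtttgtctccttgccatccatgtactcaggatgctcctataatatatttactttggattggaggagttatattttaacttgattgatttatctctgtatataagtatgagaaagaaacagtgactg
UGT2B15 (chr4:68670653-68670902, minus strand): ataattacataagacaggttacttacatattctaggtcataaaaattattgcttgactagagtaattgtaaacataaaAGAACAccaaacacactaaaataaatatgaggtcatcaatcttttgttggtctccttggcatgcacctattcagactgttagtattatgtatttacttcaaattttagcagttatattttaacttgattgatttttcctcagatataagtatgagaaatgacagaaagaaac

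Androgen-repressed genes were mixed. Of 23 measured members, 7 were called higher and 2 lower, but 5 of the 7 were UGT2B genes that this list shares with the list of glucuronidation enzymes. Of all genes 0.334% were called higher and 0.956% lower. With 12 arrays 3 members were called higher, all UGT2B genes, and 0 lower. The other members called with 11 arrays, and not with 12, were SI, sucrase-isomaltase, higher at 4.64 ± 0.67 (adjusted p = 0.00202) with 3.49, 3.44 and 3.68 in Abi_Ctrl and 6.94, 6.32 and 9.42 in Enza_Ctrl, the phosphodiesterase PDE4D, higher at 0.94 ± 0.22, the chemokine receptor ACKR3, lower at -1.14 ± 0.21, and the amino acid transporter SLC43A1, lower at -1.95 ± 0.43 (adjusted p from 0.0139 to 0.0494 for the last 3). PDE4D, ACKR3, SLC43A1 and UGT2B11 were added by name after their values were seen. The median of the list was 0.29, and 14 of 23 members were positive. Without Enza_Ctrl replicate 1, 2 were called higher and 0 lower, and without Abi_Ctrl replicate 2, 4 higher and 1 lower.

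Of 31 measured androgen-induced genes 0 were called with either set of arrays, where 1.29% of all genes were called with 11, a share that comes to less than 1 gene in a list of 31. Of the 31, 14 had a positive difference, and the median was -0.09. KLK3, which encodes prostate-specific antigen, was at 7.08, 6.81 and 6.68 in Abi_Ctrl and at 7.03, 8.83 and 6.63 in Enza_Ctrl, where only the poor array stood out. Its difference was -0.02 ± 0.47 with 11 arrays (adjusted p = 0.992) and 0.64 ± 0.63 with 12 (adjusted p = 0.544). KLK2 was at -0.25 ± 0.42 (adjusted p = 0.884) and under the negative-control level on all 11 arrays. TMPRSS2, an androgen-induced protease of the cell surface, was at 0.60 ± 0.22 (adjusted p = 0.276), and UAP1, which makes the sugar donor for glycosylation and had the smallest p of the list, at 0.75 ± 0.19 (adjusted p = 0.0688). KLK4, a prostate kallikrein, was the 1 called of 15 measured kallikreins with 11 arrays, and 0 were called with 12. It was at 5.88, 5.14 and 6.44 in Abi_Ctrl and at 9.04, 7.43 and 7.62 in Enza_Ctrl, with a difference of 2.51 ± 0.46 (adjusted p = 0.0118; 0.135 with 12 arrays). The call ended without Enza_Ctrl replicate 1 or Abi_Ctrl replicate 2. Among 29 luminal prostate markers and lineage factors 0 were called, and ACP3, prostatic acid phosphatase, had the smallest p at -1.05 ± 0.25 (adjusted p = 0.0538).

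No steroid receptor gene was called among the 5 measured, with 12 arrays or with 11, where 0.266% and 1.29% of all genes were called. NR3C1, the glucocorticoid receptor gene, was at 11.14, 11.30 and 11.49 in Abi_Ctrl and at 6.51, 7.43 and 10.37 in Enza_Ctrl. Every Enza_Ctrl array was below every Abi_Ctrl array, but replicate 3 lay near Abi_Ctrl, and the difference of -2.87 ± 0.84 missed the threshold (adjusted p = 0.141). Without Enza_Ctrl replicate 3 as well, which leaves a single Enza_Ctrl array, it was -4.80 (adjusted p = 0.00356). PGR, the progesterone receptor gene, was at -0.64 ± 0.39 and NR3C2, the mineralocorticoid receptor gene, at 0.34 ± 0.23 (adjusted p = 0.594 and 0.638). Of 37 measured glucocorticoid-induced genes 1 was called, RGS2, a brake on G protein signalling, at 2.11 ± 0.46 (adjusted p = 0.0356), and 0 with 12 arrays. The kinase SGK1 was at 0.33 ± 0.70 (adjusted p = 0.918), with 6.52, 6.20 and 5.82 in Abi_Ctrl and 6.13, 6.17 and 6.89 in Enza_Ctrl. Of 32 steroid-converting enzymes 0 were called. HSD3B1 and AKR1C3, which take part in making androgens, were under the negative-control level on all 11 arrays, at -0.47 ± 0.31 and 0.88 ± 0.39 (adjusted p = 0.631 and 0.402). STS, steroid sulfatase, was also under that level on all 11, at -1.02 ± 0.26 (adjusted p = 0.0836).

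**Figure D2:**
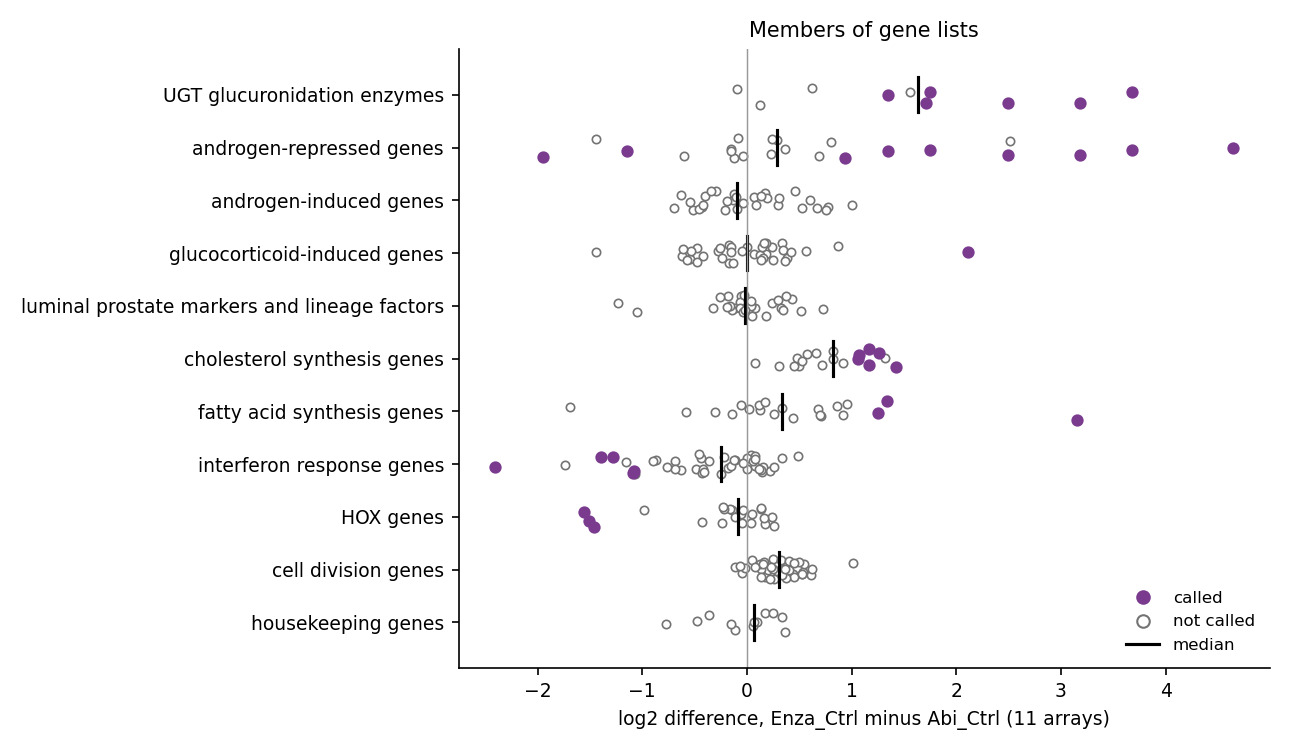
Log2 difference of Enza_Ctrl minus Abi_Ctrl with 11 arrays (horizontal axis) for each measured member of 11 gene lists (rows), with called genes filled, the others open and the median as a black bar; vertical position within a row carries no value. UGT and cholesterol synthesis genes lie to the right with medians of 1.63 and 0.82, while the 12 housekeeping genes lie around 0.06.

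Cholesterol synthesis genes were higher in LNCaPabl-Enza. All 19 measured members had a positive difference with 11 arrays, 6 were called higher and 0 lower, and the median was 0.82. Of all 17687 genes 8781 were positive and 0.334% were called higher. INSIG1, which holds back the pathway's transcription factors when sterols are plentiful, was at 11.53, 11.65 and 11.77 in Abi_Ctrl and at 13.09, 12.60 and 13.05 in Enza_Ctrl, a difference of 1.42 ± 0.21 (adjusted p = 0.0022). HMGCS1, the enzyme just before the rate-limiting step, was at 11.14, 11.29 and 11.09 and at 12.41, 12.04 and 12.08, a difference of 1.07 ± 0.21 (adjusted p = 0.017). Both genes were apart on every array, the poor one included. MVD, IDI1, FDPS and MSMO1, which encode later enzymes, were at 1.06 to 1.26 (adjusted p from 0.029 to 0.0477), FDPS and MSMO1 being named after their values were seen. With all 12 arrays 17 of 19 members were positive, the median was 0.60 and 0 were called by limma, while 1 was called with the 12 arrays centred or normalized anew and 7 with array weights. With 11 arrays 3 were called without Abi_Ctrl replicate 2 and 1 without Enza_Ctrl replicate 1.

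Fatty acid synthesis genes included 3 called higher and 0 lower of 21, against the same 0.334% of all genes called higher, with a median of 0.34. FASN, fatty acid synthase, was at 14.50, 13.98 and 14.21 in Abi_Ctrl and at 15.61, 14.37 and 15.37 in Enza_Ctrl, where the poor array overlapped Abi_Ctrl, and its difference was 1.25 ± 0.22 (adjusted p = 0.00953). ACSS2, which makes acetyl-CoA from acetate, was at 1.34 ± 0.30 (adjusted p = 0.0417), and ELOVL7 is given above. The count was 0 with 12 arrays, 0 without Enza_Ctrl replicate 1 and 1 without Abi_Ctrl replicate 2. Among 24 genes of fatty acid oxidation, ACAA2, the last enzyme of mitochondrial beta-oxidation, was higher at 1.27 ± 0.29 (adjusted p = 0.0466) and PPARGC1A, a coactivator of mitochondrial genes, lower at -2.23 ± 0.47 (adjusted p = 0.0306), and 0 of the 24 were called with 12 arrays. Of 29 glycolysis and hypoxia genes 2 were called, both lower: PFKP, a phosphofructokinase, at -1.55 ± 0.23 (adjusted p = 0.00258), and LDHB, a lactate dehydrogenase subunit, at -1.92 ± 0.43 (adjusted p = 0.0397), which was under the negative-control level on all 11 arrays. With 12 arrays 1 was called, PFKP.

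Interferon response genes included 5 called lower and 0 higher of 43, where 0.956% of all genes were called lower, with a median of -0.25. PARP14, an ADP-ribosyltransferase, was at 10.63, 10.40 and 10.94 in Abi_Ctrl and at 8.16, 8.76 and 8.35 in Enza_Ctrl, a difference of -2.40 ± 0.20 (adjusted p = 1.48e-05), and it was the member called with 12 arrays. IFITM3, IFITM1 and IFITM2, membrane proteins that restrict virus entry, were at -1.39 ± 0.22, -1.28 ± 0.28 and -1.08 ± 0.24 (adjusted p from 0.00381 to 0.0426), and OAS1, an RNA sensor named after its values were seen, at -1.08 ± 0.25 (adjusted p = 0.0496). The IFITM genes are close paralogs, so how signal is split among them is uncertain. No other member was called, ISG15 and MX1 included, and 15 of the 43 had a positive difference. The count was 1 without Enza_Ctrl replicate 1, 2 without Enza_Ctrl replicate 3 or Abi_Ctrl replicate 2, and 3 without Abi_Dex replicate 2, any Enza_Dex array or with the arrays centred on their medians. Of 24 antigen presentation genes 0 were called, with B2M at -0.78 ± 0.22 (adjusted p = 0.134).

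Promoters of the 3 called interferon genes that hold TTTC, any 2 bases and TTTC again, a core of the interferon-stimulated response element, are shown with the match in capitals. It was searched on both strands, and all 4 matches read as the reverse complement, GAAA, any 2 bases and GAAA. It was in 3 of the 4 called genes that the RefSeq table holds, in IFITM1, IFITM3 (2 matches) and PARP14 but not OAS1, and in 3.07% of all 27305 promoters.
IFITM1 (chr11:313790-314039, plus strand): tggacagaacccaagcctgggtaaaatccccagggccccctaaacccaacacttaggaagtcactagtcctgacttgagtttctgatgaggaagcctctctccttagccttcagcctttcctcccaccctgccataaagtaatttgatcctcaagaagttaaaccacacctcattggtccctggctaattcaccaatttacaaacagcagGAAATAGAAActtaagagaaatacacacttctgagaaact
IFITM3 (chr11:320861-321110, minus strand): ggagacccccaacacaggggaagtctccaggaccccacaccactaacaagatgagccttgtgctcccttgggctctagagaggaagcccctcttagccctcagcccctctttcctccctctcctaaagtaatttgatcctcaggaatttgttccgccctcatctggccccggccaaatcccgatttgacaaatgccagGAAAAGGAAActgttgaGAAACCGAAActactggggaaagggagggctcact
PARP14 (chr3:122680589-122680838, plus strand): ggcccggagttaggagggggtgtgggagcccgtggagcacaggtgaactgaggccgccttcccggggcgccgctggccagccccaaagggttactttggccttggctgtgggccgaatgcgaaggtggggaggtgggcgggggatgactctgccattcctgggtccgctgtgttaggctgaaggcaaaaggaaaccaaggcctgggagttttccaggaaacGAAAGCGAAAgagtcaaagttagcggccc

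Growth factor, matrix and transport genes had few calls with 11 arrays, where 1.29% of all genes were called in either direction. With 12 arrays 0 members of the lists named here were called, except HOXC13 among the HOX genes. Of 24 insulin-like growth factor genes, IGFBP3 and IGFBP2, which bind the growth factors outside the cell, were lower. IGFBP3 was at 13.68, 13.15 and 11.03 in Abi_Ctrl and at 6.33, 4.87 and 9.17 in Enza_Ctrl, uneven in both lines, with a difference of -4.87 ± 0.94 (adjusted p = 0.017; 0.0726 with 12 arrays), and IGFBP2 was at -1.97 ± 0.40 (adjusted p = 0.0242). LTBP1, a latent TGF-beta binding protein, was the 1 called of 32 TGF-beta and BMP genes, at -2.47 ± 0.49 (adjusted p = 0.0192). SERPINE2, SERPINH1 and SERPINB5 of 40 serine proteases and inhibitors were lower by -2.37 ± 0.29, -1.47 ± 0.29 and -1.28 ± 0.22 (adjusted p from 0.00045 to 0.0198), but SERPINB5 was under the negative-control level on all 11 arrays. ABCG1, a cholesterol exporter, and SLCO3A1, an organic anion transporter, were the 2 called of 19 drug and steroid transporters, at -1.38 ± 0.25 and -1.51 ± 0.28 (adjusted p = 0.00967 and 0.0121). GSTA4, a glutathione transferase, was at -1.34 ± 0.26 (adjusted p = 0.0179), 1 of 36 glutathione and xenobiotic genes. CDH26, a cadherin, was at 1.62 ± 0.25 (adjusted p = 0.00321), 1 of 40 keratin and junction genes, and MAGED1 at -0.98 ± 0.20 (adjusted p = 0.0255), 1 of 43 cancer-testis genes. HOXC13, HOXC11 and HOXC9, neighbouring homeobox genes, were lower by -1.51 ± 0.27, -1.56 ± 0.28 and -1.46 ± 0.28 (adjusted p from 0.00938 to 0.0157), the 3 called of 22 HOX genes. HOXC11 and HOXC9 were under the negative-control level on all 11 arrays, and the HOX count was 0 without Enza_Ctrl replicate 1 and 1 without Enza_Ctrl replicate 3.

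Cell division genes turned with the poor array. With 11 arrays 36 of 40 measured members had a positive difference with a median of 0.30, and with 12 arrays 14 of 40 with a median of -0.23, or 24 of 40 after normalizing the 12 arrays anew. DNA replication genes did the same, with 30 of 43 positive and a median of 0.12 with 11 arrays, and 11 of 43 and -0.40 with 12. None of either list was called with either set of arrays, where 1.29% of all genes were called with 11 arrays and 0.266% with 12. MKI67, which encodes the proliferation antigen Ki-67, was at 12.63, 12.55 and 12.79 in Abi_Ctrl and at 12.25, 11.07 and 12.95 in Enza_Ctrl, a difference of -0.05 ± 0.25 (adjusted p = 0.964). RRM2, a ribonucleotide reductase subunit, was at 0.68 ± 0.22 (adjusted p = 0.19), and the oncogene MYC at 0.85 ± 0.23 (adjusted p = 0.113). Neuroendocrine, fibroblast, immune and endothelial marker lists (28, 14, 15 and 10 measured) and the WNT, Notch, integrin, inflammatory, unfolded protein, metallothionein, BCL2 and clock lists had 0 called members with 12 or with 11 arrays.

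The lines were compared again with dexamethasone. The 6 treated arrays do not enter the DMSO differences, but they enter the residual spread behind the 228 and 47 calls. In fits that share no array, 117 genes were called in the 5 good DMSO arrays alone (0.662%). Of these, all but 1 had the same sign in the 6 treated arrays alone, and 104 were called there with that sign. Fitted alone, the treated arrays gave 502 called genes (2.84%), and within the fit of 11 arrays 403 (2.28%), 133 higher (0.752%) and 270 lower (1.53%). Within the fit of 12 arrays 49 were called (0.277%). Of the 228 genes called with DMSO, 226 had the same sign in the treated arrays, where 62.4% of all genes did, and 184 were called there with the same sign. In 211 the treated groups did not overlap and lay the same way, where 20.1% of all genes had no overlap in either direction. The median absolute difference of the 228 was 1.53 with DMSO and 1.45 with dexamethasone. Over all genes, a description in which genes are no replicates, DMSO and treated differences had a Pearson r of 0.658 with 11 arrays and 0.364 with 12. S100A10 was at -7.03, EFNA5 at -5.26, MBNL2 at -3.33, MMP16 at 5.46, ATP1B1 at 3.28 and UGT2B17 at 3.94 in the treated arrays. Cholesterol synthesis genes were again all positive, with 9 of 19 called higher, UGT genes had 7 of 10 called higher, and interferon genes 5 of 43 called lower. The treated cell division genes were positive in 40 of 40, with 2 called.

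**Figure D3:**
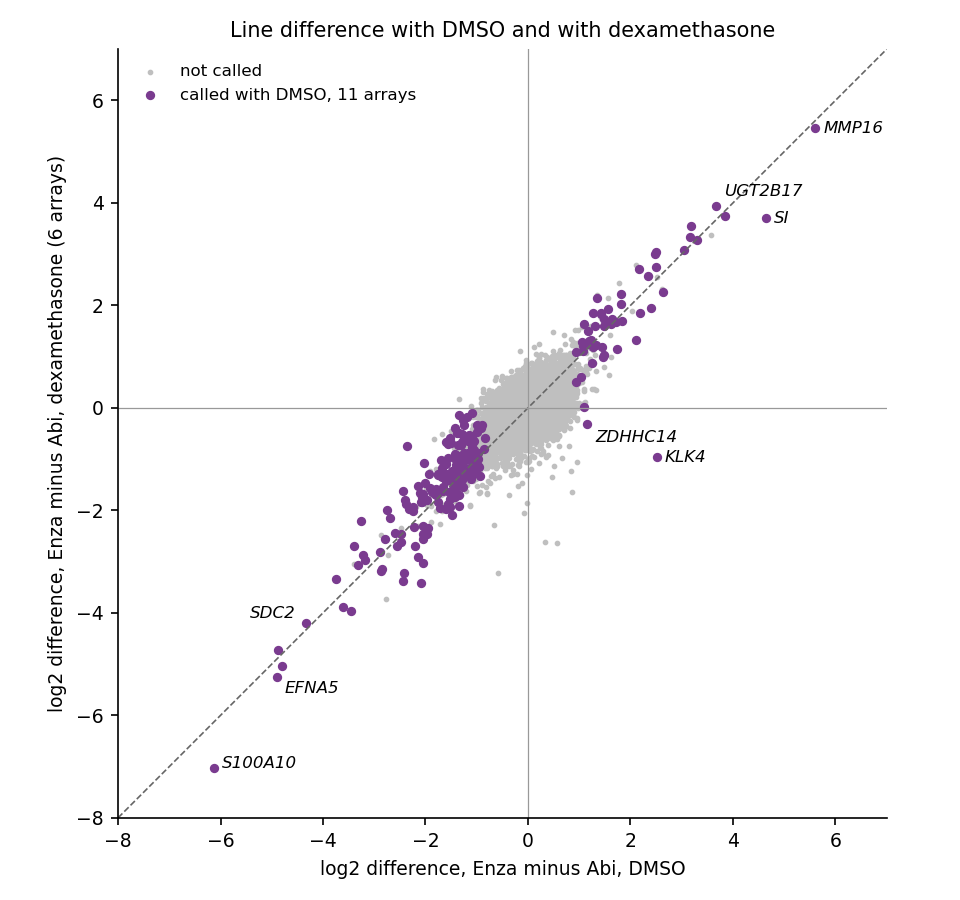
Log2 difference of LNCaPabl-Enza minus LNCaPabl-Abi with DMSO (horizontal axis, 11-array fit) against that with dexamethasone (vertical axis, the 6 treated arrays alone), 1 point per gene, with the genes called with DMSO in purple and the dashed line marking equal differences; Y-linked genes are left out. The called genes lie along the dashed line, except KLK4 at 2.51 and -0.96 and ZDHHC14 below 0 on the vertical axis.

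The difference of the differences, dexamethasone minus DMSO, was tested directly and uses the same DMSO arrays with opposite sign. It gave 0 called genes by limma with 12 arrays (266, or 1.5%, had p under 0.05 before adjustment) and 0 with 11 (566, or 3.2%), and 0 without any 1 array. KLK4 was at 9.97, 10.58 and 11.09 in Abi_Dex and at 9.01, 9.52 and 10.22 in Enza_Dex, groups that overlap. Its line difference was -0.96 ± 0.41 with dexamethasone (adjusted p = 0.362), and the difference from the DMSO value was -3.47 ± 0.62 (adjusted p = 0.434). HOXC13 went from -1.51 with DMSO to -0.69 ± 0.24 with dexamethasone (adjusted p = 0.222), and SGK1 from 0.33 to -2.62 ± 0.63 (adjusted p = 0.0416; 0.356 with 12 arrays). Those p-values are of the line difference with dexamethasone alone. The differences from the DMSO values were 0.82 ± 0.36 for HOXC13 and -2.955 ± 0.946 for SGK1 (limma adjusted p = 0.999 for both), so neither passed.

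The treated arrays also placed each DMSO array between the lines by genes that it had no part in choosing. On the 333 autosomal or X-linked genes called lower in LNCaPabl-Enza in the treated arrays, with 0 at the Abi_Dex mean and 1 at the Enza_Dex mean, Enza_Ctrl replicate 1 lay at a median of 1.05, replicate 3 at 0.862 and the poor replicate 2 at 1.5. The Abi_Ctrl arrays lay at 0.160, 0.0931 and 0.0578. On the 165 genes called higher, the Enza_Ctrl arrays lay at 1.00, 0.548 and 0.932 and the Abi_Ctrl arrays at 0.146, 0.215 and 0.258. Each good array was thus nearer to its own line, while the poor array was past the Enza mean for the genes that were lower and about midway for those that were higher. Enza_Ctrl replicate 3 was nearer to Abi than replicate 1 in 214 of the 333 and 95 of the 165.

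Some called genes were neighbours of each other. By gene order in the RefSeq table, 63 of the 228 lay in 25 runs of called genes with at most 2 tested genes between them, and 23 of the 25 runs had 1 direction. How many runs to expect when 1.29% of all genes are called was not worked out, and some runs hold paralogs. On chromosome 1, where 1.66% of 1812 tested genes were called, 10 of the 31 from PRKACB to GBP3 were called, all lower. Of the 31, 25 were negative, the median being -0.69. This stretch joins the separate runs PRKACB to GNG5, MCOLN2 to SYDE2 and SH3GLB1 to GBP3, so its ends were set at called genes. PRKACB was lowest there, DNASE2B was at -2.26, GBP3, a guanylate-binding protein, at -1.76, SAMD13 at -1.70, LMO4, a transcriptional cofactor, at -1.40 and GNG5, a G protein subunit, at -1.31. DDAH1 and HS2ST1, in the same stretch and above the negative controls on all 11 arrays, were at 0.11 and 0.01, so the stretch was not lower throughout. In the treated arrays 21 of the 31 were negative in both comparisons. Runs of 3 or more outside this stretch were the UGT2B genes, the 3 IFITM genes, the 3 HOXC genes, COBLL1, SLC38A11 and SCN2A on chromosome 2, and IMPA1, CHMP4C, SNX16 and LRRCC1 on chromosome 8, the last 4 runs all lower. Chromosome 4 had the highest share of called genes among chromosomes 1 to 22 and X, 3.03% of 692. These genes were named after their values were seen, gene copy number was not measured here, and its part in the runs was not tested.

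**Figure D4:**
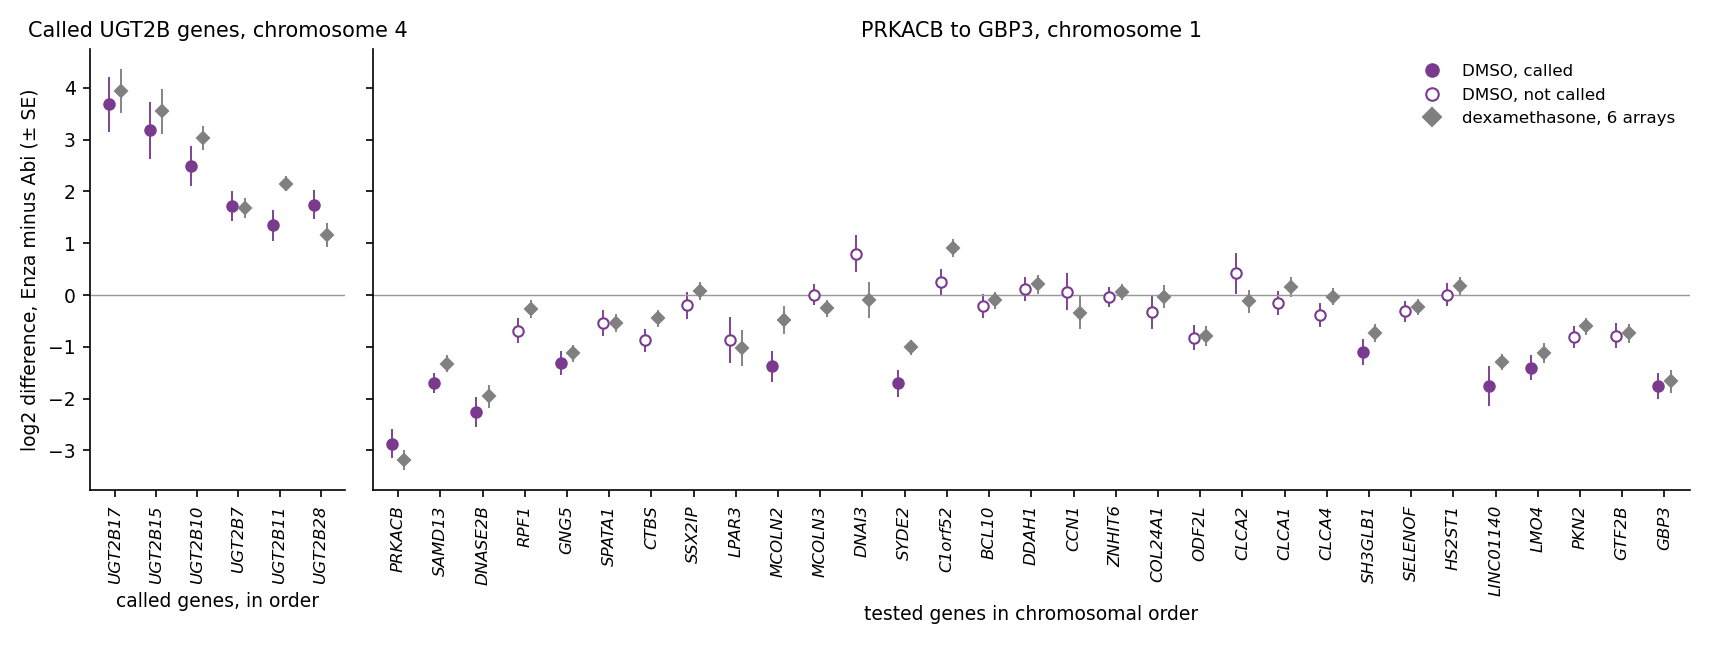
Log2 difference of LNCaPabl-Enza minus LNCaPabl-Abi (vertical axis, ± SE) for the called UGT2B genes of chromosome 4 (left) and the 31 tested genes from PRKACB to GBP3 on chromosome 1 (right), in chromosomal order without distances, with DMSO (circles, filled where called, 11-array fit) and with dexamethasone (diamonds, 6 treated arrays alone). The UGT2B genes lie above 0 in both comparisons, and the called genes of the chromosome 1 stretch lie below 0 in both.

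Across the named genes, 0 of the 29 called with 12 arrays stayed called under every alternative tried. All 29 lost the call with only the arrays of the compared groups. Of the 69 called with 11 arrays, 26 stayed called under every alternative, each of which left the poor array out. They were S100A10, EFNA5, MBNL2, MBNL3, PRKACB, SCRN1, GPX8, MKX, H2AJ, SPRY3, GPRIN3, TLL1, ARID5B, ZDHHC15, SERPINE2 and PARP14 among the lower genes, and MMP16, SI, ATP1B1, ATP11A, IFT57, EMP2, ST8SIA4, ADGRG6, PLD1 and INSIG1 among the higher. Of these 26, SERPINE2, SI, IFT57, EMP2, ST8SIA4 and INSIG1 were not called with 12 arrays. The other 43 lost their call under at least 1 alternative, 37 of them without Enza_Ctrl replicate 1, and 0 of the 69 changed sign.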

How the data were processed

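The deposited table holds the authors' log2 values for 12 arrays hybridised with biotin-labelled target made from 150 ng total RNA, per the labels' protocols. Expression Console (Affymetrix), limma and RMA are named in the submitters' processing notes. RMA corrects background, brings arrays to a common distribution and summarises probes. Values ran from 1.66 to 18.6, wide for RMA alone, so folds on this scale can overstate changes in RNA. The build and the RMA options were not given in the sources used here.

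Of 24351 rows, 17709 had 1 symbol in the platform annotation, all matched to RefSeq, and 6642 had none. The brightest row was kept for 20 symbols with several, which left 17687 genes. Groups came from titles. limma 3.58.1 in R 4.3.3 (lmFit, eBayes) was fitted to 4 group means with no filter or block, with 12 arrays and with 11, and a gene was called at a Benjamini-Hochberg adjusted p under 0.05. Unless stated otherwise, a difference is the mean log2 value of LNCaPabl-Enza minus that of LNCaPabl-Abi, with its SE, from the 11-array fit. The number of arrays limits the precision. No 2 arrays were identical. The members and 49 gene lists were chosen with earlier results of these data known. Named genes were the 15 highest and 15 lowest called genes without overlap in each fit, up to 4 called members of each list by p (with none called, the one of smallest p), and 15 receptors and targets chosen by name, not all of which are reported here. Those of smallest p in uncalled lists are given where the text turns on them. Y-linked genes count in totals and are not named. On simulated data of 17687 genes, log2 changes of 1, 2 and 4 in this comparison were recovered in 13.4%, 59.7% and 89.4% with 12 arrays and 43.3%, 94.0% and 100% with 11. Of the unchanged genes, 6 were called with 12 arrays and 10 with 11. The simulation gave all arrays of a gene the same spread, so it did not model a single poor array. Alternatives were each array left out, a replicate block, only the compared groups, quantile normalization anew, median centring, the dimmest genes left out, a trended robust prior and array weights. Leaving out Abi_Ctrl and Enza_Ctrl replicate 3 together was added after seeing the data.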

Additional observations from a re-analysis of the deposited data

Results flagged for a closer look

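ZDHHC14, which encodes a palmitoyltransferase, was higher in LNCaPabl-Enza with DMSO and lower with dexamethasone, without overlap between the lines in either comparison once the poor array was left out. It was at 6.24, 5.46 and 5.59 in Abi_Ctrl and at 6.73, 7.80 and 7.11 in Enza_Ctrl (1.16 ± 0.24, limma adjusted p = 0.0292 with 11 arrays), and at 7.08, 6.76 and 6.64 in Abi_Dex and 6.43, 6.59 and 6.53 in Enza_Dex. The test of the difference between the treatments gave -1.47 ± 0.33, which did not pass (limma adjusted p = 0.999). It lay above the negative-control level on 0 of the 11 arrays, so the size of both differences is uncertain. It was chosen after its values were seen, and 1 such gene stood among the 228.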

How the results depend on the processing

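Leaving out each array in turn gave 11 to 228 called genes for the 12-array comparison, 58 to 242 for the 11-array one, 12 to 403 for the lines with dexamethasone (49 with every array) and 0 for the difference between treatments. With only the arrays of the 2 groups the counts were 0 (DMSO, 6 arrays), 117 (DMSO, 5 arrays) and 502 (dexamethasone), and array weights gave 252 with 12 arrays and 767 with dexamethasone. The other alternatives kept each count within 1.5 times. Same-numbered DMSO arrays of the lines had deviations from their group means with r of 0.00963, 0.0812 and 0.156. Differently numbered arrays had r from -0.132 to 0.0927. The Enza_Ctrl means included the poor array, so these values cannot decide whether replicate numbers pair the lines. The replicate block gave 64 called genes with 12 arrays, 303 with 11, 56 with dexamethasone and 0 for the difference. With the block NR3C1, not called without it, was called with 11 arrays (-3.02 ± 0.61, limma adjusted p = 0.021) and not with 12 (adjusted p = 0.11).

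All calls of named genes kept their sign under the alternatives run. Of the 12-array calls, 184 of 551 gene and alternative pairs lost the call, and of the 11-array calls 163 of 1311. The sign turned for genes not called in the fit concerned. With 12 arrays KLK3 was -0.011 under array weights and SERPINB5 0.14 after quantile normalization anew. With 11 arrays KLK3 was 0.016 after quantile normalization, 0.014 after centring and 0.089 without both replicate 3 DMSO arrays, where SGK1 was -0.23. Over single arrays left out, the 12-array values ran from -0.43 to 1.34 for ACSS2, from -0.31 to 1.62 for CDH26, from -0.47 to 0.24 for HSD3B1, from -0.534 to 0.164 for KLK2, from -0.024 to 1.08 for KLK3, from -0.75 to 0.033 for PGR, from -1.28 to 0.46 for SERPINB5 and from -0.031 to 0.387 for SGK1. The 11-array values ran from -0.63 to 0.072 for KLK2, from -0.23 to 0.18 for KLK3, from -0.40 to 0.30 for MKI67 and from -0.050 to 0.714 for SGK1. The cause was not tested. Signal over background limits the genes at or below the negative controls, whose differences have no sure size.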

Other observations

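Replicate 3 of LNCaPabl-Enza stood apart from its group in the same genes with and without dexamethasone, in arrays that share no sample. The rule, chosen after seeing the data, took genes in which Enza_Ctrl replicate 3 differed from replicate 1, and Enza_Dex replicate 3 from the mean of replicates 1 and 2, by over 2 on the log2 scale. It found 10 genes with the same sign in both and 0 with opposite signs. The 7 that were higher in replicate 3 were FLRT3 (by 3.94 with DMSO and 4.09 with dexamethasone), the matrix gene HMCN1 (3.91 and 2.79), NR3C1 (3.86 and 2.48), LRRTM1 (2.99 and 3.30), the collagen-modifying enzyme P3H2 (3.03 and 2.48), CYP1A2 (2.49 and 2.47) and SI (2.47 and 2.32). The 3 that were lower were carbonic anhydrase CA1 (-4.50 and -4.26), the MAP kinase phosphatase DUSP5 (-3.27 and -3.50) and GPNMB (-2.18 and -2.11).

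In 9 of the 10 the deviation brought replicate 3 nearer to LNCaPabl-Abi, SI being the exception, and 1 of the 10, SI, was called between the lines. CA1 had a mean line difference of 3.57 (limma adjusted p = 0.258) and P3H2 of -3.39 (adjusted p = 0.0517). Replicate 3 of LNCaPabl-Abi also lay apart in some of these genes, with and without dexamethasone. In HMCN1, LRRTM1 and CA1 it went the same way as in LNCaPabl-Enza. HMCN1 was at 7.51, 7.98 and 10.12 in Abi_Ctrl and at 6.73, 7.83 and 9.62 in Abi_Dex. In FLRT3 and CYP1A2 it went the opposite way. FLRT3 was at 8.91, 8.75 and 6.81 in Abi_Ctrl. Over all genes, a description in which genes are no replicates, the replicate 3 deviations with DMSO and with dexamethasone had a Pearson r of 0.216 in LNCaPabl-Enza, and of 0.303 in LNCaPabl-Abi. Whether same-numbered arrays of a line share a culture is not given in the labels.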
